A study of Mus musculus with 2 samples.

Results

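Cytosolic ribosomal proteins are the protein subunits of the ribosome that translates nuclear-encoded mRNA. Their genes were taken from the gene expression table by symbol, as rows named Rpl or Rps with a number and an optional A, X, L or L1 ending, together with Rplp0, Rplp1, Rplp2 and Rpsa. The rule matched 86 of 34376 rows, which carried 84 of 34126 symbols, 52 of the large and 32 of the small subunit. Of these, 77 were genes of the ribosome itself (46 large, 31 small), called core genes here, and 7 were paralogues whose names end in L or L1. The rule left out Fau, which encodes a ribosomal protein fused to a ubiquitin-like protein. All 84 symbols were at 1 RPKM or more in at least 1 library, RPKM being reads scaled by the length of the gene model and the depth of the lane.

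mRNA was sequenced from E14, a mouse embryonic stem (ES) cell line of strain 129P2/OlaHsd at passage 29, in 1 differentiated and 1 undifferentiated library, each on 2 lanes. The differentiated cells had spent 4.5 days without feeder cells in 10% serum with 0.1 µM all-trans retinoic acid, a vitamin A derivative that ends self-renewal, and were a mixed population with about 8% dead cells. The undifferentiated cells had grown in 15% serum with leukaemia inhibitory factor at 1000 u/ml on growth-arrested mouse embryonic fibroblasts, of which under 0.25% were estimated to remain after removal, and held about 2% dead cells. Lanes are repeat runs of the same library, so nothing here measures the spread between cultures and no test of the condition can be made.

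The lanes implied 33000000 and 32000000 reads for the differentiated and 37800000 and 36100000 reads for the undifferentiated library. At 1000 RPKM, a model of 500 bases then held 16000.0 to 18900.0 reads a lane, with a counting error of 0.727% to 0.791%. The labels were checked against marker genes. The 4 ES cell markers (Pou5f1, Nanog, Zfp42, Esrrb) summed to 45.1 RPKM in the differentiated and 1279 RPKM in the undifferentiated library, while the 4 markers of retinoic acid response and extraembryonic fate (Cyp26a1, Rarb, Gata4, Gata6) summed to 442 RPKM in the differentiated and 3.03 RPKM in the undifferentiated library. The 4 fibroblast markers (Col1a1, Col1a2, Col3a1, Thy1) summed to 221 RPKM in the differentiated and 26.1 RPKM in the undifferentiated library, and each was above 0 in both. The collagen genes carried that sum, while Thy1 had 2.13 RPKM in the differentiated and 3.43 RPKM in the undifferentiated library. Their part in the results below was not tested.

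The small ribosomal subunit binds and decodes the mRNA, and the large subunit joins the amino acids and releases the chain through its exit tunnel. Nearly every ribosomal protein is present once in each ribosome, and the genes are expressed at high and similar levels in growing cells. Their mRNAs are known for a terminal oligopyrimidine start, a C followed by a run of pyrimidines, through which mTOR signalling adjusts their translation.

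That start was looked for in RefSeq promoter sequences of build GRCm38.p6, which held 64 of the 84 members. A run was counted where a C lay between bases -5 and +5 of an annotated start and was followed by at least 4 further C or T bases on the strand of the gene. It was present in 29 of the 64 members (45.3%), against 5328 of all 27025 genes in that table (19.7%). The starts shown belong to some of the members with the most different ratios or levels, and to Rplp2. They are a selection in which a run is more common than the 45.3% of members. Each extends from 15 bases before the start to base +10. Capitals mark a run that began between bases -5 and +5, with no capitals where none began there.
Rps18 (chr17:33955656-33955680, minus strand): tacgtcacttccgCTCTCTCTTCCa
Rplp2 (chr7:141447636-141447660, plus strand): tgcgtcagcgtCTTCCTTTCgccgc
Rpl12 (chr2:32961697-32961721, plus strand): ggcggagcaggatccgtCTTTTCgg
Rps27 (chr3:90213639-90213663, minus strand): atttccgctttcgCTCCTTTCCggc
Rps27l (chr9:66946071-66946095, plus strand): ccactcctccccgccgCCTCTatcc
Rpl22l1 (chr3:28805493-28805517, plus strand): gtgcggcgcaagcccgttCTCTTCC
Rpl10 (chrX:74270801-74270825, plus strand): gttgttacagtggaagataggccgc
Rpl10l (chr12:66284392-66284416, minus strand): tttggcctccattttgcggctggcg
Rps18, Rplp2 and Rps27 carried the run across the start base, and Rpl12, Rps27l and Rpl22l1 a few bases downstream of it. No run began between bases -5 and +5 of Rpl10 or Rpl10l. The same held for members of extreme ratio or level that are not shown: Rpl7l1, Rpl39l, Rpl3l, Rpl26, Rpl41, Rplp0, Rpl37a and Rps19. Another annotated start of Rps27l, also not shown, had no run either.

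Nearly all ribosomal protein genes were lower in differentiated cells, by similar amounts. The median log2 ratio of differentiated over undifferentiated RPKM, with 1 added to each, was -0.71 over the 84 members and -0.71 and -0.72 in the separate lane pairs. The ratio was below 0 in 83 of 84 members, where 44.3% of all 18019 genes at 1 RPKM or more were below 0 and the median was 0.12. Because these are bulk samples, fewer cells of a type and less RNA per cell cannot be told apart. The core genes of the large subunit had a median of -0.71 and those of the small subunit -0.72. With the paralogues included, the medians were -0.72 for the large and -0.69 for the small subunit, so the order of the subunits depends on the set.

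The ratios of core genes lay close together. Of the 77 core genes, 60 lay between -1 and -0.5, 15 between -0.5 and 0, 1 at or below -1 and 1 above 0. Only 4 members were at least 2-fold lower in differentiated cells (Rpl10l, Rpl22l1, Rpl7l1 and Rps18), where the background was 8.46% of all genes. This count depends on the scaling of the libraries: it was 12 when ratios were centred on the median of all genes, 15 with a trimmed mean, 43 with the upper quartile and 2 with equal RPKM sums. No member was at least 2-fold higher, where the background was 19.1%. Both differentiated lanes lay below both undifferentiated lanes in 80 members, as in 37.1% of all genes. They lay above in Rpl10, and the lanes overlapped in Rpl12, Rpl36a and Rps27l, as in 15.6% of all genes.

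**Figure D1:**
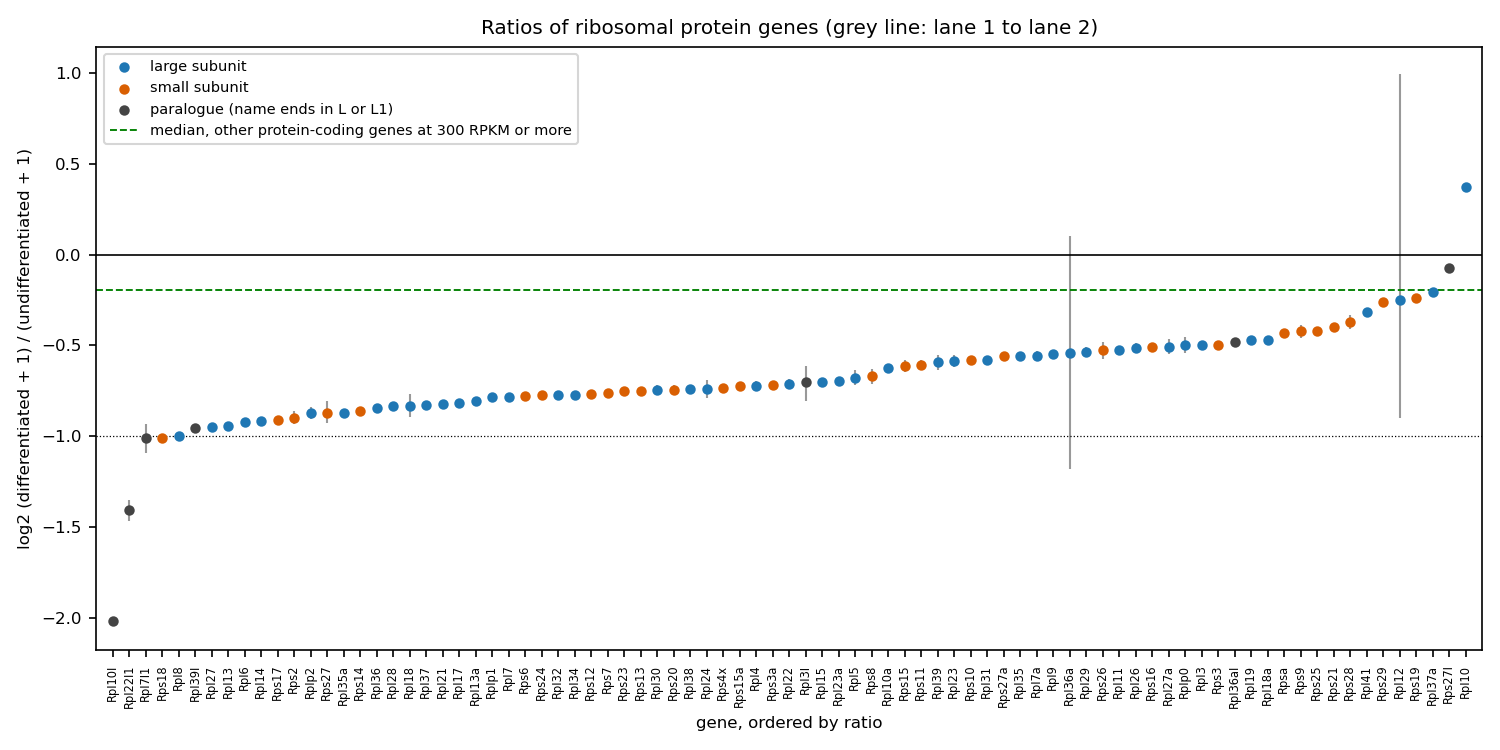
Points show 83 of the 84 members, each at its log2 ratio of (differentiated RPKM + 1) over (undifferentiated RPKM + 1), ordered from lowest to highest, with a grey line between the ratios of lane 1 and lane 2. Rpl10l lies lowest at -2.02, Rpl10 is the 1 point above 0, and the lines of Rpl12 and Rpl36a cross 0.

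Other abundant rows were mostly lower in differentiated cells too. Of the 649 rows outside the rule at 300 RPKM or more in either library, 83.1% were below 0, with a median of -0.59. At least 2-fold lower were 10.0% and at least 2-fold higher 7.86%. These rows split by kind. The 194 that RefSeq names as protein-coding genes had a median of -0.20, with 60.3% below 0. Of these, 14.4% were at least 2-fold lower and 20.6% at least 2-fold higher. The other 455 rows, pseudogenes and rows whose symbol is not that of a protein-coding RefSeq gene, had a median of -0.68, with 92.7% below 0. Synonyms were not looked up for this split, so renamed protein-coding genes can be among the 455. Across all levels, 80 rows were named as pseudogenes of 39 member genes, and all 54 of those at 1 RPKM or more were below 0, with a median of -0.65. The middle ratios of the core genes, from -0.79 to -0.53 between quartiles, spanned less than those of the abundant protein-coding genes, from -0.74 to 0.74.

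**Figure D2:**
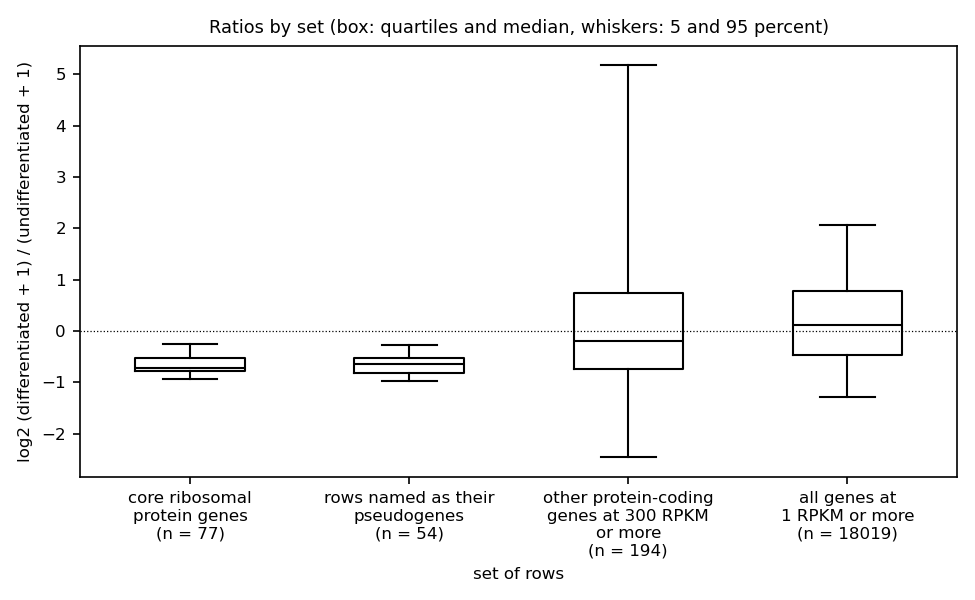
Boxes give the quartiles and median, and whiskers the 5th and 95th percentiles, of the log2 ratio of differentiated over undifferentiated RPKM in 4 sets of rows. Core genes and rows named as their pseudogenes sit at -0.71 and -0.65, below the median of -0.20 of the other protein-coding genes at 300 RPKM or more and of 0.12 of all genes.

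The ribosomal protein genes took up a smaller part of the summed signal after differentiation. Their RPKM summed to 8.68% of the column in the differentiated library (8.65% and 8.72% by lane) and 11.4% in the undifferentiated library (11.2% and 11.6%). Large subunit genes made up 5.06% of the differentiated and 6.58% of the undifferentiated column, and small subunit genes 3.62% and 4.80%. The column sums themselves were 836419 RPKM in the differentiated and 989605 RPKM in the undifferentiated library.

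The median core gene stood at 881 RPKM in differentiated and 1366 RPKM in undifferentiated cells. A level of 1000 RPKM was reached by 25 of 77 core genes in differentiated cells and 59 in undifferentiated cells. Large subunit core genes had a lower median than small subunit ones in both libraries, 811 against 991 RPKM in differentiated cells and 1283 against 1457 RPKM in undifferentiated cells. Across the 77 core genes, levels in the libraries correlated with a Spearman rho of 0.91, with single genes such as Rpl10 changing place, and the ratio did not follow the level (rho 0.01). These correlations run across genes, which share the libraries and are not replicates. The ratios of lane 1 and lane 2 correlated with a rho of 0.83.

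**Figure D3:**
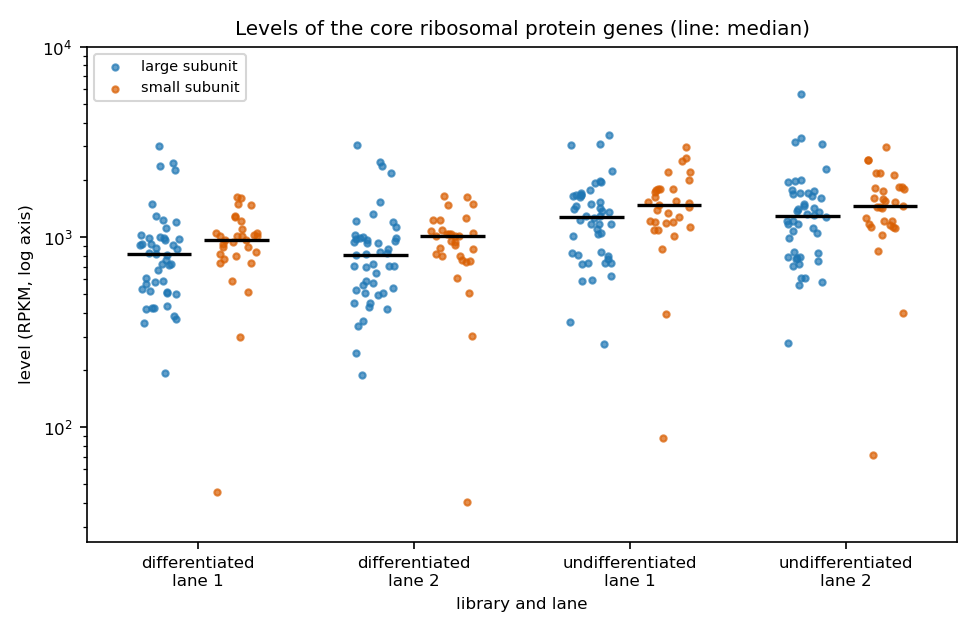
Points are the RPKM of the 77 core genes in each lane on a log axis, with lines at the medians of the large and small subunit. The medians are higher in both undifferentiated lanes, and the lowest small subunit point in every lane is Rps27.

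The most abundant members came from both subunits. Rpl26, a large subunit protein near the exit tunnel, had 2366 and 2374 RPKM in the differentiated lanes and 3446 and 3326 RPKM in the undifferentiated lanes, a log2 ratio of -0.51. Rpl41, the shortest ribosomal protein, had 2460.3 and 2478 RPKM in the differentiated lanes and 3052 and 3097 RPKM in the undifferentiated lanes (-0.32). Both were lower in both differentiated lanes, with lanes of a library close together. Rps18, a protein of the small subunit head at chr17:34088944-34092608 of build mm9, had 1486 and 1478 RPKM in the differentiated lanes and 2995 and 2980.0 RPKM in the undifferentiated lanes. It was the core gene with the lowest ratio, -1.01, or 49.6% of its undifferentiated level, and reads it shares with near-identical copies make its level uncertain, as 89.7% of the 36-base windows of its mRNA also occur in another gene. Rpl8, a large subunit protein close to the peptidyl transferase centre, had 984 and 999.98 RPKM in the differentiated lanes and 1964 and 1999 RPKM in the undifferentiated lanes (-0.998). Rpl8 has few such windows, 9.44%.

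The stalk of the large subunit, which recruits the GTPase translation factors, was lower in all 3 of its genes. Rplp0, its base, had 2261 and 2165 RPKM in the differentiated lanes and 3097 and 3152 RPKM in the undifferentiated lanes, a ratio of -0.50. Rplp1 had 1295 and 1320.2 RPKM in the differentiated lanes and 2220.5 and 2288 RPKM in the undifferentiated lanes (-0.79). Rplp2 had 716 and 702 RPKM in the differentiated lanes and 1285 and 1318 RPKM in the undifferentiated lanes (-0.87). No lanes overlapped in the 3 genes, and the acidic tip proteins Rplp1 and Rplp2 had lower ratios than the base. Rpsa, a small subunit protein also known as a laminin receptor, had 1618 and 1635 RPKM in the differentiated lanes and 2199 and 2182 RPKM in the undifferentiated lanes (-0.43).

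Rpl12, a protein at the base of the stalk and the member with the highest mean level, rests on discordant lanes. It had 3029 and 3041 RPKM in the differentiated lanes and 1522 and 5685 RPKM in the undifferentiated lanes. The undifferentiated lanes differed 3.74-fold and lay on either side of the differentiated ones. The ratio was -0.25 on the means, 0.99 in lane 1 and -0.90 in lane 2, so no direction can be read. Rpl12 was the 1 member with such lanes, defined as a 2-fold or larger difference at 10 RPKM or more, where 2.48% of 9705 genes had them. Lanes agreed within 10% in both libraries in 79 members.

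Among core genes whose lanes lay apart between libraries, the smallest differences were in Rpl37a, Rps19 and Rps29. Rps19, a small subunit protein mutated in human Diamond-Blackfan anaemia, had 1009 and 1038 RPKM in the differentiated lanes and 1203 and 1212 RPKM in the undifferentiated lanes, a ratio of -0.24. Rpl37a, a large subunit protein with a zinc finger, had 508 and 509 RPKM in the differentiated lanes and 590.4 and 584 RPKM in the undifferentiated lanes (-0.21). Rps29, likewise a zinc-binding protein of the small subunit, was named after its values were seen and had a ratio of -0.26. Scaling the libraries to equal RPKM sums, which adds about 0.24 to the ratios of genes at this level, put Rps19 and Rpl37a at or above 0.

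Rpl10 was the single member higher in differentiated cells. Its protein joins the large subunit late in assembly, near the peptidyl transferase centre. The X-linked gene, at chrX:71516151-71518474 of build mm9, had 1501 and 1531 RPKM in the differentiated lanes and 1172 and 1169 RPKM in the undifferentiated lanes, a ratio of 0.37. Both lanes were higher in differentiated cells, and its place among the 84 members by level was 7 in differentiated and 52 in undifferentiated cells. Its value is uncertain, since 92.3% of the 36-base windows of its mRNA occur in another gene. The copy that holds that same share, Rpl10-ps3, had 900.1 and 913 RPKM in the differentiated lanes and 1300 and 1303 RPKM in the undifferentiated lanes, a ratio of -0.52. Rpl10-ps1 and Rpl10-ps6, which share 79.8% and 74.7% of the windows, each had -0.53. Rpl10 and these 3 copies lay on opposite sides of 0. Other copies held almost no signal. Gm3379, with 73.8% of the windows, had 0.06 RPKM in the differentiated and 0.07 RPKM in the undifferentiated library. Gm2387, with 55.2%, had 0.10 RPKM in the differentiated and 0.05 RPKM in the undifferentiated library. The sources used here do not say how reads with several matches were assigned.

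The 7 paralogues were compared with the parent genes they resemble. All 7 were below 0, with a median of -0.95, and 5 of 7 had a lower ratio than the parent. They are single genes of different origin and have no common level, from 0.46 to 305 RPKM in differentiated cells and from 1.37 to 322 RPKM in undifferentiated cells. Coding identity with the parent ranged from 59.8% for Rpl7l1 to 87.7% for Rpl36al. No 36-base window was shared with the parent except 3 windows of Rpl39l, so a read that matches a paralogue exactly matches its parent almost nowhere.

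Rpl10l is an intronless copy of Rpl10 that in mice stands in for the X-linked gene in male germ cells. The gene had 11.53 and 11.96 RPKM in the differentiated lanes and 50.1 and 51.1 RPKM in the undifferentiated lanes, the lowest ratio of all members at -2.02. The lanes lay far apart between libraries. In differentiated cells Rpl10l reached 0.775% of the level of Rpl10, against 4.32% in undifferentiated cells. The difference of paralogue minus parent was -2.39. Rpl10l shares 84.7% of coding bases with Rpl10, and 18.1% of its windows occur in 1 other gene, an annotated pseudogene.

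Rpl22l1, the paralogue of the RNA-binding protein Rpl22, had 65.9 and 59.1 RPKM in the differentiated lanes and 170 and 165 RPKM in the undifferentiated lanes, a ratio of -1.41. Rpl22 had 371 and 364 RPKM in the differentiated lanes and 596 and 609 RPKM in the undifferentiated lanes, a ratio of -0.71. The paralogue stood at 17.0% of Rpl22 in differentiated and 27.8% in undifferentiated cells, and the difference of -0.69 was -0.67 and -0.72 by lane. Of its windows, 70.2% occur elsewhere, and Gm15421, which holds 60.3% of them, had a ratio of -1.13.

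Rpl7l1, a paralogue of the large subunit protein Rpl7, had 57.3 and 52.7 RPKM in the differentiated lanes and 110.2 and 114 RPKM in the undifferentiated lanes, a ratio of -1.01. Rpl7 had 960.3 RPKM in both differentiated lanes and 1666 and 1644 RPKM in the undifferentiated lanes (-0.78). The difference of -0.23 was -0.14 and -0.32 by lane. Rpl39l, a germ cell paralogue of the exit tunnel protein Rpl39, had 10.9 and 10.3 RPKM in the differentiated lanes and 22.2 and 20.8 RPKM in the undifferentiated lanes (-0.95). Rpl39 had 512 and 537 RPKM in the differentiated lanes and 796 and 788 RPKM in the undifferentiated lanes (-0.59). Rpl7l1 stood at 5.73% of Rpl7 in differentiated and 6.77% in undifferentiated cells, and Rpl39l at 2.02% of Rpl39 in differentiated and 2.72% in undifferentiated cells.

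Rpl3l, a paralogue of Rpl3 known from heart and skeletal muscle, was near the detection floor. It had 0.58 and 0.33 RPKM in the differentiated lanes and 1.42 and 1.33 RPKM in the undifferentiated lanes, where Rpl3 had 873 and 861 RPKM in the differentiated lanes and 1235 and 1215 RPKM in the undifferentiated lanes. Its ratio of -0.70 sits on a scale that adds 1 RPKM, which understates differences at such levels. The sign of its difference from Rpl3, -0.21, turned to 0.27 when 5 RPKM was added in place of 1.

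Rpl36al, an autosomal paralogue of the X-linked Rpl36a, had 225 and 228 RPKM in the differentiated lanes and 317 and 316 RPKM in the undifferentiated lanes (-0.48). Rpl36a had 384 and 245 RPKM in the differentiated lanes and 359 and 557 RPKM in the undifferentiated lanes, so its lanes overlapped and its ratio was 0.10 in lane 1 and -1.18 in lane 2. The difference between the pair, 0.06, was -0.59 in lane 1 and 0.71 in lane 2 and has no stable sign. Of the Rpl36a windows, 86.4% occur elsewhere.

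Rps27l, a paralogue of Rps27 known as a p53 target, had 316 and 295 RPKM in the differentiated lanes and 329 and 314 RPKM in the undifferentiated lanes. The lanes overlapped, and the ratio was -0.07. The row of Rps27, a zinc-finger protein of the small subunit, had only 45.4 and 40.2 RPKM in the differentiated lanes and 87.4 and 71.0 RPKM in the undifferentiated lanes (-0.87), the lowest core level. Another row, Gm9846, overlaps Rps27 on the same strand and had 468 and 476 RPKM in the differentiated lanes and 695 and 706 RPKM in the undifferentiated lanes (-0.57). The level of Rps27 is uncertain for that reason, and 98.7% of its windows occur in another gene. The difference of Rps27l from Rps27 was 0.80, and from the Gm9846 row the ratio of Rps27l was also higher.

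**Figure D4:**
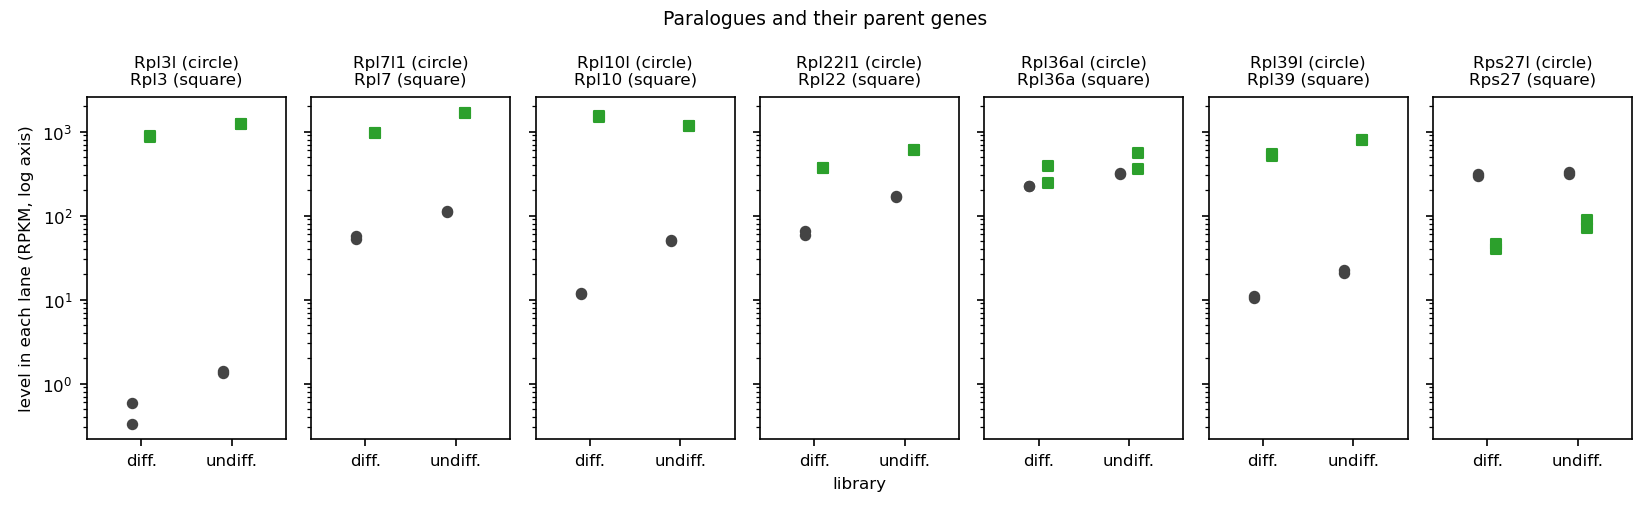
Each panel shows a paralogue (circles) and its parent gene (squares) as RPKM per lane on a log axis, with differentiated lanes left of undifferentiated lanes. Rpl10l and Rpl22l1 separate most clearly between libraries, while the Rpl36a squares spread within each library and Rps27l stands above the Rps27 row.

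Shared sequence was measured for all members because reads of 36 bases from processed copies can be assigned to either. The median core gene had 59.0% of its mRNA's 36-base windows in at least 1 other GENCODE gene, on either strand. That gene need not be a processed copy. Rpl35 had 98.2% of its windows in another gene but 32.4% in annotated pseudogenes, and Rpl5 94.6% and 42.8%. The 24 core genes with under 50% shared had a median ratio of -0.59, and all 24 were below 0. The 53 core genes at 50% or more had a median of -0.73, and 52 were below 0. Only 5 core genes had under 10% shared, and all 5 were below 0 with a median of -0.74. They include Rpl8 of the large subunit, described above, and Rps3 of the small subunit, which was named for its share of 6.35% and had 1016 and 1033 RPKM in the differentiated lanes and 1444 and 1447 RPKM in the undifferentiated lanes (-0.50). Of the 84 other genes, processed copies or not, at 1 RPKM or more that held at least 50% of a member's windows, 83 were below 0.

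**Figure D5:**
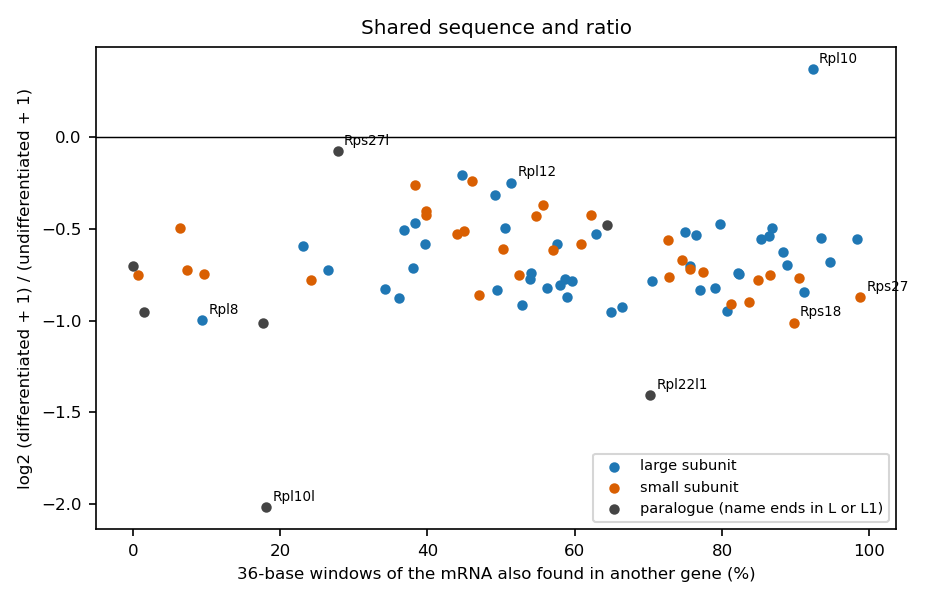
The share of 36-base windows of each member's mRNA found in another gene (percent) is plotted against its log2 ratio of differentiated over undifferentiated RPKM. Core genes lie below 0 at low and high shares, with medians of -0.59 under 50% and -0.73 at 50% or more, and Rpl10 is the 1 point above 0.

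Core genes with a pyrimidine run at the start had a median ratio of -0.74 (27 genes), against -0.60 in those without (30 genes). The ranges overlapped, from -1.01 to -0.25 with a run and from -0.95 to 0.37 without, and no test was made. The share with a run depends on the window. From base -20 to base +20 it was 81.2% of members and 52.6% of all genes. The start sequences above are annotated starts and were not measured in these cells.

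The use of promoters and transcripts within a gene differed little. Of the 84 genes, 45 had several promoter groups in the deposited table, and the median largest change in a group's share was 0.456 percentage points. At the transcript level 68 genes had several entries, with a median of 0.912 points. Rpl21 and Rpl3l changed by 10 points or more, named here after their values were seen. The leading Rpl21 transcript, of a large subunit protein, made up 71.6% of the gene in differentiated cells (69.9% and 73.4% by lane) and 59.4% in undifferentiated cells (59.1% and 59.7%). Rpl3l was too low for its shares to be read.

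Other ribosomal proteins outside the rule were also lower in differentiated cells, Gnb2l1 (the scaffold Rack1) at a ratio of -0.68 and Fau at -0.59. Gnb2l1 had 1022 and 1018 RPKM in the differentiated lanes and 1608 and 1655 RPKM in the undifferentiated lanes. Among 17 ribosome assembly and export factors, 5 were at least 2-fold lower, none at least 2-fold higher and all 17 below 0, with a median of -0.73. Of all genes, 8.46% were at least 2-fold lower, 19.1% at least 2-fold higher and 44.3% below 0. Rrs1, which helps place the 5S particle in the large subunit, had 19.8 and 19.6 RPKM in the differentiated lanes and 51.9 and 53.2 RPKM in the undifferentiated lanes (-1.37). Grwd1, a chaperone of Rpl3, had 22.5 and 23.4 RPKM in the differentiated lanes and 52.5 and 51.1 RPKM in the undifferentiated lanes (-1.14). These medians stand beside 0.12 for all genes.

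The same shares of all genes apply to the lists that follow. Of 10 elongation factor genes 1 was at least 2-fold lower, Eef1e1, which is also part of the tRNA synthetase complex, at -1.05. The median was -0.38, and Eef1b2, an exchange factor of eEF1A, had -0.73. Of 37 initiation factor genes at 1 RPKM or more, 2 were at least 2-fold higher, where the background was 19.1%, and 1 lower, where it was 8.46%, with a median of -0.30. The lower one was Eif2s2, a subunit of the factor eIF2, at -1.68, named after its values were seen. Eif4g3, a scaffold of the cap-binding complex, had 55.2 and 49.7 RPKM in the differentiated lanes and 7.18 and 4.38 RPKM in the undifferentiated lanes (2.98). Eif2b2, a subunit of the eIF2 exchange factor, had the same ratio of 2.98, but its differentiated lanes were 861 and 49.8 RPKM against 60.1 and 54.0 RPKM in undifferentiated cells, so that 1 lane gave the difference. Of 6 termination and recycling factors none differed 2-fold, and the 2 furthest from 0 were the recycling factor Abce1 at -0.66 and the release factor Etf1 at -0.64, with a list median of -0.46.

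Genes that control these mRNAs or receive the growing chain were mixed in direction. The 17 genes of mTOR signalling and start-sequence regulation had a median of 0.02, below the 0.12 of all genes, with 8 of 17 below 0. At least 2-fold higher were 3 of 17, where the background was 19.1% of all genes, and none was 2-fold lower. Pdcd4, an inhibitor of the helicase eIF4A, had 61.6 and 60.4 RPKM in the differentiated lanes and 16.3 and 17.9 RPKM in the undifferentiated lanes (1.77). Tia1, an RNA-binding protein of stressed cells, had 27.4 and 30.4 RPKM in the differentiated lanes and 7.06 and 9.51 RPKM in the undifferentiated lanes (1.69). Rptor, the mTOR partner and the other of the 3, had 55.7 and 13.6 RPKM in the differentiated lanes and 13.3 and 13.4 RPKM in the undifferentiated lanes, and rests on 1 lane. The 11 partners of nascent chains had a median of 0.30 with no 2-fold difference, and 5 of 11 were below 0. The translocon subunits Sec61a1 and Sec61b had 0.75 and 0.74. The remaining translocon subunit Sec61g had -0.07, and Btf3 and Naca, which form the nascent chain complex, had -0.54 and -0.43. These 3 were named after their values were seen.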

How the data were processed

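RNA-seq values of 1 differentiated and 1 undifferentiated library, 2 lanes each, were analysed. Per the labels' protocols, 5 µg of total RNA went into an Illumina mRNA kit that does not mark strand, with templates of about 250 bp read as 36 bp single-end reads, so overlapping genes share reads. The authors deposited gene, promoter and transcript tables of 34376, 55830 and 83402 rows. The deposited unit is unnamed and was read as RPKM: in 7878 single-exon genes, 82.4% to 82.7% of 3547 to 3590 low values per lane were whole multiples of 1 read, within 0.05 read. The build is mm9 per the submitters' processing notes, with aligner, counter, annotation and treatment of multiple matches not given in the sources used here.

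Ratios are log2 of (differentiated RPKM + 1) over (undifferentiated RPKM + 1), for genes at 1 RPKM or more in either library. This scale understates differences of low genes. Where rows shared a symbol, the one with the highest mean stands for it. No p-value is given, since there is 1 library per group, and no count test, since values are RPKM. Depth precision covers counting error only. Members were matched to RefSeq names by symbol (83) or synonym (1). Shared windows and coding identity came from GENCODE M21 transcripts, and start sequences from RefSeq GRCm38.p6, used for sequence alone. Python 3.11.15, pandas 2.3.3, numpy 2.4.6, Biopython 1.88 and matplotlib 3.10.9 were used. Only the log2 ratio calculation was tested on simulated data.

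The members, lists, markers and named genes were chosen with earlier results of these data known. Named were all paralogues and parents, Rplp0 to Rplp2, Rpsa, the 5 highest and 5 lowest members by ratio and by undifferentiated level, members 2-fold different or with lanes 2-fold apart, the 2 most different genes of each other list, and Fau and Gnb2l1. The values of 2 genes are not reported here. Alternatives covered the pseudocount, the floor, 4 scalings, single lanes, duplicate rows, denominators and windows.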

Additional observations from a re-analysis of the deposited data

How the results depend on the processing

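The median over all members was -0.72 with a pseudocount of 0.1 RPKM and -0.71 with 5 RPKM. It was -0.84 centred on the median of all genes, -0.84 with a trimmed mean, -1.004 with the upper quartile and -0.48 with equal RPKM sums. These scalings shift the log2 ratio of a well-expressed gene by about -0.12, -0.13, -0.29 and 0.24, and less at low levels under the upper quartile and equal sums. With paralogues included, the large subunit median, -0.72 as deposited, was -0.73 with 0.1 RPKM, -0.73 in lane 1 and in lane 2 alone, and -0.84, -0.85, -1.01 and -0.49 under the same scalings. The small subunit median with its paralogue, -0.69 as deposited, was -0.82, -0.82, -0.98 and -0.45 under them. Members under 50% of shared windows, paralogues included, an alternative chosen after seeing the data, had -0.70. That value is the ratio of Rpl3l, the member near the floor. The 24 core genes of that set had a median of -0.59, closer to 0 than all members. The count at least 2-fold lower, 4 as deposited, was 12 centred on the median, 15 with a trimmed mean, 43 with the upper quartile and 2 with equal sums. With equal sums Rpl37a, Rps19 and Rps27l joined Rpl10 at or above 0, and in lane 1 alone Rpl12 and Rpl36a did.

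The members' share was 11.3% in differentiated and 15.3% in undifferentiated cells with other rows at 1000 RPKM or more left out of the total, and 8.60% in differentiated cells without paralogues. The level of large over small subunit core genes was 0.818 in differentiated and 0.881 in undifferentiated cells by medians, and 0.938 and 0.914 by means. The start run was in 81.2% of members and 52.6% of all genes in the wider window. The sign turned for Rpl3l minus Rpl3 (0.27 with 5 RPKM) and Rpl36al minus Rpl36a (-0.59 in lane 1). A further 10 values of paralogue minus parent moved beyond the lane spread and kept their sign, and the cause of the shifts was not tested. No paired analysis was possible because each condition has 1 library. Depth limits Rpl3l, the member near the floor.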

Other observations

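Eef1a1, the elongation factor that brings tRNA to the ribosome and the most abundant gene of the translation lists, was named after its values were seen. It had 6822 and 6846 RPKM in the differentiated lanes and 5213 and 5219 RPKM in the undifferentiated lanes, a ratio of 0.39, where Eef2, the translocation factor, had 1287 and 1293 RPKM in the differentiated lanes and 1581 and 1626 RPKM in the undifferentiated lanes (-0.31).

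Rpl29, a large subunit protein, has 3 rows. The row used lies at chr5:116251566-116252205 of build mm9, is not on the chromosome RefSeq gives, and had 192 and 188 RPKM in the differentiated lanes and 273 and 278 RPKM in the undifferentiated lanes. The row on chromosome 9, where RefSeq places the gene, had 115 and 112 RPKM in the differentiated lanes and 171 RPKM in both undifferentiated lanes. The remaining row, at chr1:43245964-43246603, has the same span as the row used. Both are shorter than the row at chr9:106331785-106333899. Whether they are processed copies of Rpl29 was not tested, so the core gene value of Rpl29 comes from a row outside the RefSeq place of the gene. All 3 rows were lower in differentiated cells.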
